A study of Mus musculus with 10 samples.

Results

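A set of 44 mouse genes that interferons induce was followed in cultured fibroblasts, chosen by symbol and matched to the identifiers of a count table of 22731 genes. Of these 44 genes, 43 are in the table, Mx2 was not analysed here, and 36 had enough counts to be tested. They fall into 29 targets of type I interferon (23 tested), 12 GTPases induced mainly by interferon gamma (12 tested) and 3 other genes that respond to interferon gamma (Irf1, tested, and Cxcl9 and Cxcl10, too low). The libraries are bulk RNA sequencing of C57B6 fibroblasts positive for Pdpn and Pdgfra, in 3 groups. Fibroblasts cultured by themselves gave 4 libraries (monoculture), coculture with wild-type ILC2s gave 3 (WT coculture), and coculture with IL-13 knockout ILC2s gave 3 (IL13KO coculture). ILC2s are group 2 innate lymphoid cells, tissue lymphocytes without an antigen receptor. The fibroblasts of all groups carry the same C57B6 label, and the knockout lies in the ILC2s. Age, length of culture and the assignment of animals to libraries are not given in the sources used here, so the p-values measure the spread between these libraries, which may be technical.

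Type I interferons bind a receptor of the chains IFNAR1 and IFNAR2, and interferon gamma binds IFNGR1 and IFNGR2. Both receptors signal through Janus kinases to STAT proteins. A complex of STAT proteins with IRF9 binds the interferon-stimulated response element (ISRE) of the type I targets, and STAT dimers bind the gamma-activated site (GAS). The targets block steps of virus replication, sense foreign RNA or, as the guanylate-binding proteins (GBPs) and immunity-related GTPases (IRGs), attack the vacuoles of intracellular pathogens. Fibroblasts express a low level of many of these genes without added interferon.

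The promoters of these genes were searched for the cores of both elements, GAAANNGAAA on either strand for the ISRE and TTCNNNGAA, which reads the same on both strands, for the GAS. The windows come from RefSeq (GRCm38.p6) and reach from 250 bases before to 50 bases after each start. RefSeq windows were matched for 32 members (36 windows). The ISRE core occurred in 19 of the 36 windows (52.8%) against 3.44% of all 32851 windows, and the GAS core in 9 (25%) against 8.3%. In the type I targets the ISRE core occurred in 11 of 23 windows, and in the GTPases in 7 of 9. The GAS core occurred in 4 of 23 and in 4 of 9. A match is a description of letters and was not tested as a binding site. Stretches of 250 bases before the start are shown, written 5′ to 3′ on the strand of the gene, with the matched bases in capitals. They were chosen after their matches were seen, to show 2 targets of each class that hold a core and 1 that holds none. The first 3 are type I targets, at chr4:156200819-156201068 (minus strand) for Isg15, chr19:34583279-34583528 (plus) for Ifit3 and chr11:72301379-72301628 (plus) for Xaf1. The last 3 are GTPase genes, at chr11:58199306-58199555 (plus) for Igtp, chr3:142530086-142530335 (plus) for Gbp7 and chr11:49076337-49076586 (plus) for Ifi47.
Isg15: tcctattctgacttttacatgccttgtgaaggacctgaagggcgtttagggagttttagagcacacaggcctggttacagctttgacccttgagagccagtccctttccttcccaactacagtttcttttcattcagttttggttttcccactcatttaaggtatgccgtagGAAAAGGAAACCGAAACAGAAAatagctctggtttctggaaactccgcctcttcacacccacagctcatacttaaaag
Ifit3: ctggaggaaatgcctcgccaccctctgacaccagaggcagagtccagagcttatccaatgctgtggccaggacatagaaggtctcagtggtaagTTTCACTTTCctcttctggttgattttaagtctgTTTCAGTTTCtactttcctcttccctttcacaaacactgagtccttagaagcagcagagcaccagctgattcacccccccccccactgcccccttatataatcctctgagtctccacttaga
Xaf1: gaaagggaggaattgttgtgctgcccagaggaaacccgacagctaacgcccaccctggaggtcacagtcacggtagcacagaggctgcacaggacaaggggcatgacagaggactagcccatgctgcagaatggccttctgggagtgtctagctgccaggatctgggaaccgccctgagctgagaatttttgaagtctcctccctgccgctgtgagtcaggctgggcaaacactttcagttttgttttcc
Igtp: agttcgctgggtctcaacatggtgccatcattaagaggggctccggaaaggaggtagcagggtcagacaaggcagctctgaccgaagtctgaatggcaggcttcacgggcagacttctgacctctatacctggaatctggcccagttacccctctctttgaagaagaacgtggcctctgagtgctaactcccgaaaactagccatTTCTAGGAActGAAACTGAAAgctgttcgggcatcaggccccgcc
Gbp7: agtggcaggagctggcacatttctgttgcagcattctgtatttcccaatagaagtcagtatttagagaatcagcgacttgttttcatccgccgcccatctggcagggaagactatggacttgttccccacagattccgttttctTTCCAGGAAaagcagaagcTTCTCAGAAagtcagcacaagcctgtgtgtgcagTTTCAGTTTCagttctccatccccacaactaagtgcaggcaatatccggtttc
Ifi47: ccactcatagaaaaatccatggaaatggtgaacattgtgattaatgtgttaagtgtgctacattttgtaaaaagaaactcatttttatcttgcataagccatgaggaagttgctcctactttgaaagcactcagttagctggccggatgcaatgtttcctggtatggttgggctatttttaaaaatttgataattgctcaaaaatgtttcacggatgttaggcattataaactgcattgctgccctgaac
Counted from the start of the gene, the ISRE cores of Isg15, which overlap, begin at -78, -72 and -66 and the separate cores of Ifit3 at -156 and -122. In Igtp a GAS core begins at -45 and an ISRE core at -34, and in Gbp7 GAS cores begin at -106 and -87 and an ISRE core at -53. Xaf1 and Ifi47 hold neither core in this window.

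Total counts were 10710410 to 14366199 in the monocultures and 17277432 to 22087459 in the cocultures, and a floor of 3 counts was worth 0.136 to 0.280 CPM (the unit of counts after scaling by library size). Il13, which the knockout ILC2s lack, was read 30, 120 and 121 times in WT cocultures 1, 3 and 4, and 0 times elsewhere. The summed level of 6 fibroblast markers was 5700 to 7500 CPM in monoculture, 7750 to 12000 with WT and 15300 to 18700 with IL13KO ILC2s, and none was at 0. Col1a1, a collagen chain, rose in both cocultures (mean 1070, 6756 and 11570 CPM), whereas the matrix proteoglycans Dcn and Lum fell by 6.86-fold and 12.9-fold with WT and by 1.53-fold and 2.71-fold with IL13KO ILC2s. Dcn and Lum were thus lowest with WT ILC2s, and both differed between the cocultures (log2 fold change -2.16 and -2.26). Ptprc, which encodes CD45, had 0 reads in all monocultures and at most 0.485 CPM in the cocultures, although the design text names a CD45-positive gate for the sort after coculture. The summed level of 6 leukocyte genes, most of it Cd53, was 2.89 to 4.52 CPM in monoculture, 94.6 to 118 with WT and 13.5 to 20.9 with IL13KO ILC2s. Of the leukocyte genes, 3 were at 0 in every monoculture. The summed level of 4 macrophage genes in the table, most of it Lyz2 outside the WT cocultures, was 58.4 to 65.3, 14.7 to 17.5 and 35.2 to 37.1 CPM, and Adgre1 was at 0 in every monoculture. The summed level of 8 ILC2 genes, without Rora, was 1.1 to 2.32, 10.1 to 34.8 and 3.18 to 12.0 CPM. Rora itself had a mean of 63.7, 41.73 and 55.25 CPM. With Rora included the ILC2 sum was 60.9 to 73.5, 57.6 to 75.6 and 59.8 to 63.8 CPM, so these ranges overlapped. The summed levels of the fibroblast, leukocyte and macrophage lists, and of the ILC2 list without Rora, move with the groups. Genes within the fibroblast and macrophage lists went in opposite directions, and the part of these lists in the results was not tested. In bulk samples fewer cells that express a gene and less RNA per cell cannot be told apart.

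The first question was how the members differed between fibroblasts kept with wild-type ILC2s and fibroblasts alone. Of the 36 tested members, 25 were lower in the WT coculture, 2 were higher and 9 were not called by edgeR's quasi-likelihood test at an adjusted p (Benjamini-Hochberg) below 0.05. Over all 16344 genes tested, 29.7% were lower, 32.8% higher and 62.5% called in either direction by the same rule. The fall covered both classes, with 15 of 23 type I targets lower (median log2 fold change -0.82) and 10 of 12 GTPases lower (median -1.46), against a median of 0.02 over all genes. In the IL13KO coculture 17 members were lower than in monoculture and 2 were higher, where 27.3% and 30.1% of all genes were, 57.4% in either direction. The type I targets kept 14 lower genes (median -0.68), all of them also lower with WT ILC2s, whereas of the GTPases 3 were lower (median -0.45). Both comparisons share the monocultures. The difference between the cocultures was therefore tested directly, and here 12 members were lower with WT than with IL13KO ILC2s and 0 were higher, where 11.7% of all genes were lower, 11.6% higher and 23.3% called in either direction. Of these 12 genes 9 were GTPases (of 12 tested, median -1.28) and 3 were type I targets (of 23, median -0.16). Counted without a test, the libraries of the compared groups did not overlap for 20 lower and 2 higher members with WT ILC2s, where 28.7% and 32.2% of all genes did not. For IL13KO coculture against monoculture this held for 17 lower and 2 higher members (28.3% and 30.9% of all genes), and between the cocultures for 16 and 3 (24.8% and 24.2%).

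**Figure D1:**
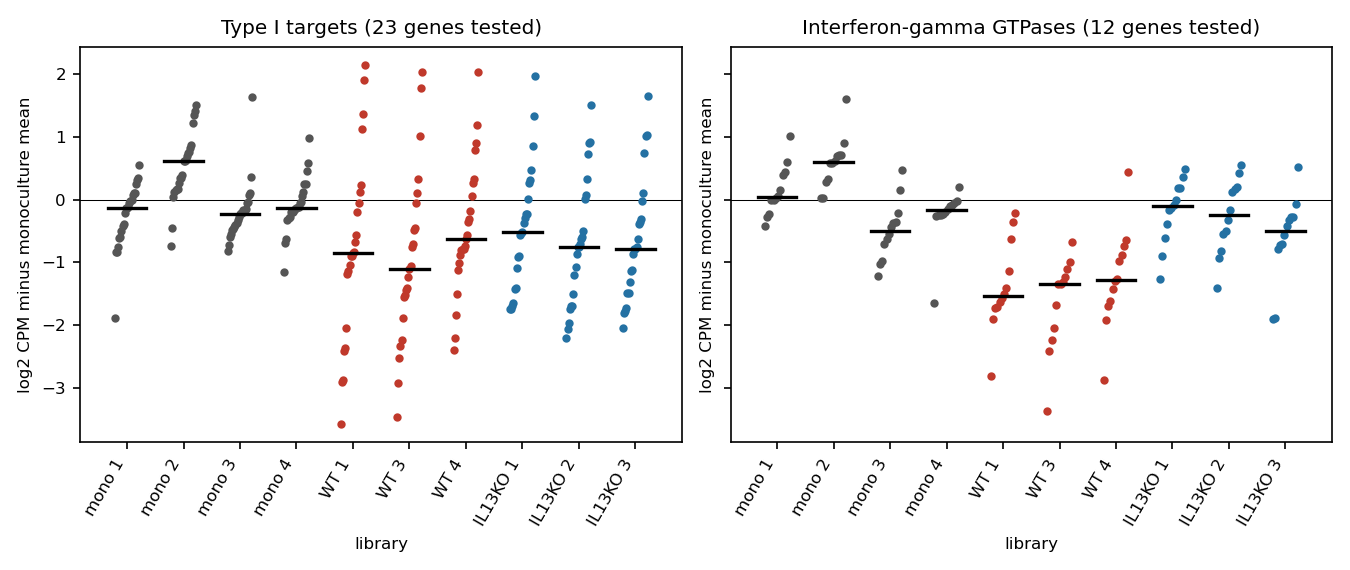
Each point is 1 gene in 1 library, as log2 CPM minus the mean of the 4 monocultures (vertical axis), with a black bar at the class median, for 23 type I targets (left) and 12 GTPases (right) across the 10 libraries (horizontal axis). The GTPase medians lie at -1.28 to -1.54 in the WT cocultures and at -0.10 to -0.49 in the IL13KO cocultures, while the type I medians lie at -0.63 to -1.10 and at -0.51 to -0.78.

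Library by library, the median GTPase stood at -1.54, -1.35 and -1.28 in WT cocultures 1, 3 and 4 (the numbers the count table gives them), relative to the monoculture mean on the log2 scale. In IL13KO cocultures 1 to 3 it stood at -0.10, -0.25 and -0.49, and in monocultures 1 to 4 at 0.04, 0.60, -0.49 and -0.16. The WT cocultures thus lay below every other library for this class. By the median, IL13KO cocultures 1 and 2 lay within the range of the monocultures, and IL13KO coculture 3 equalled its lower end (-0.49). By the class mean, IL13KO coculture 3 (-0.62) lay below the lowest monoculture, monoculture 3 (-0.49). The median type I target stood at -0.85, -1.10 and -0.63 with WT and at -0.51, -0.75 and -0.78 with IL13KO ILC2s, and at -0.13, 0.61, -0.22 and -0.13 in the monocultures. Both coculture groups lay below all 4 monocultures for the type I targets, and they overlapped each other.

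**Figure D2:**
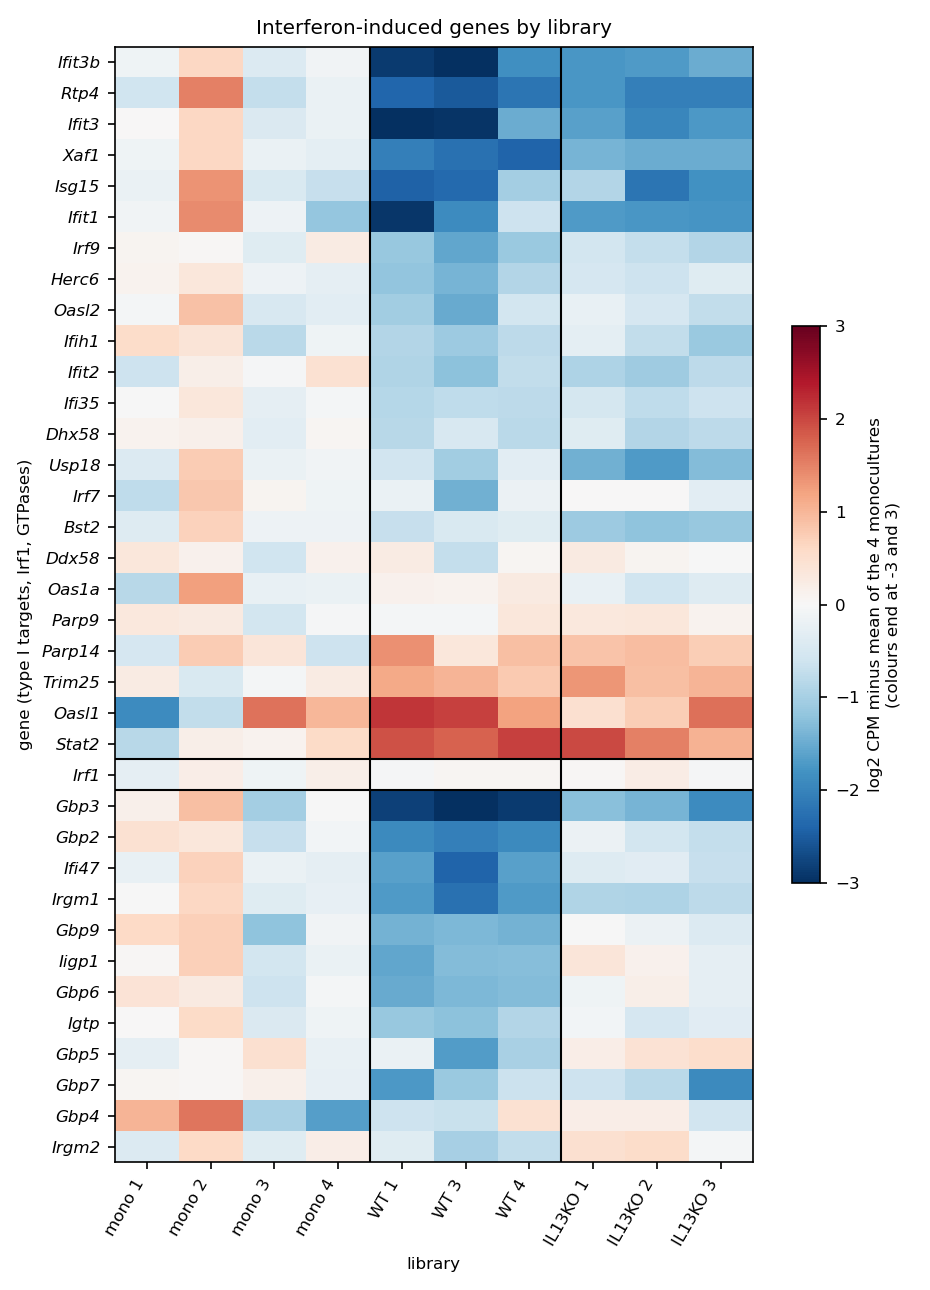
The colour gives log2 CPM minus the monoculture mean for each tested member (rows, by class) in each library (columns), with colours ending at -3 and 3. Among the GTPases Gbp3, Gbp2, Ifi47 and Irgm1 are on average the darkest blue in the WT cocultures, Gbp3 stays blue in the IL13KO cocultures while Iigp1 and Gbp6 are pale there, and the column of monoculture 2 is red for most members.

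Among the transcription factors, Irf9, the DNA-binding subunit of the complex that acts on the ISRE, had the highest level per length in monoculture (9.24 CPM per kb of exon, against 0.695 to 3.0 for Stat2, Irf7 and Irf1). Irf9 stood at 51.9, 50.7, 37.9 and 58.6 CPM in the monocultures, at 22.4, 16.8 and 22.6 with WT and at 33.3, 30.0 and 26.9 with IL13KO ILC2s. The 3 groups did not overlap, in the order monoculture, IL13KO, WT. Irf9 was lower by 2.42-fold with WT ILC2s (log2 fold change -1.28 ± 0.16 (SE), edgeR adjusted p = 2.21e-05) and by 1.66-fold with IL13KO ILC2s (-0.73 ± 0.16, edgeR adjusted p = 0.00182). Stat2, the partner of IRF9 in that complex, moved the other way, at 2.11, 4.37, 4.15 and 5.84 CPM in the monocultures, 14.9, 13.6 and 16.3 with WT and 15.5, 11.3 and 8.11 with IL13KO ILC2s. Every coculture lay above every monoculture, and the rise was 3.59-fold (1.85 ± 0.28, edgeR adjusted p = 9.58e-05) and 2.80-fold (1.49 ± 0.28, edgeR adjusted p = 6.89e-04). With each library's trend over GC content and transcript length removed, the Stat2 difference shrank to 1.05 with WT ILC2s (still called) and to 0.58 with IL13KO ILC2s (edgeR adjusted p = 0.0901). Irf7, which amplifies the type I response, was at 2.62 to 8.07 CPM in monoculture, 1.59 to 3.99 with WT and 3.63 to 4.55 with IL13KO ILC2s and was not called (-0.62 ± 0.38 and -0.21 ± 0.37), but was called as lower with that trend removed (-1.64 and -1.37). Irf1, which interferon gamma induces directly, was at 9.88 to 13.7 CPM in monoculture, 11.6 to 12.4 with WT and 11.5 to 13.7 with IL13KO ILC2s. Its difference to monoculture was 0.02 ± 0.16 and 0.06 ± 0.16 on the log2 scale, and the groups overlapped.

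The IFIT genes encode proteins that bind foreign RNA, Isg15 a ubiquitin-like modifier and Usp18 the protease that removes it. All 6 genes of this family group were lower in both cocultures (median log2 fold change -1.97 with WT and -1.78 with IL13KO ILC2s). Of all genes tested 29.7% were lower with WT and 27.3% with IL13KO ILC2s. Ifit3 (chromosome 19, 34583531 to 34588731, GRCm38) stood at 21.2, 32.4, 15.7 and 18.6 CPM in the monocultures, 1.66, 2.66 and 7.38 with WT and 6.69, 5.34 and 6.35 with IL13KO ILC2s. Every coculture lay below every monoculture, and WT coculture 4 was above the other 2 WT cocultures. The fall was 5.68-fold with WT (-2.51 ± 0.42, edgeR adjusted p = 1.84e-04) and 3.58-fold with IL13KO ILC2s (-1.84 ± 0.40, edgeR adjusted p = 0.00168), and without WT coculture 4 the first was -3.34. Ifit3b, a near-identical copy with which Ifit3 can share reads, fell by 6.71-fold and 3.35-fold. Isg15 stood at 12.3, 36.5, 10.3 and 8.79 CPM in the monocultures, 2.56, 2.72 and 7.01 with WT and 7.60, 3.01 and 3.97 with IL13KO ILC2s. Again no coculture reached a monoculture, while monoculture 2 was far above the other 3. The Isg15 difference of -2.07 ± 0.54 with WT ILC2s (edgeR adjusted p = 0.00506) became -1.37 without monoculture 2, and -2.68 without WT coculture 4. With IL13KO ILC2s it was -1.81 ± 0.54, became -1.11 without monoculture 2, and lost its call without IL13KO coculture 2 or 3.

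Ifit1 stood at 8.53, 24.9, 8.30 and 4.08 CPM in the monocultures, 1.122, 2.41 and 5.93 with WT and 2.78, 2.67 and 2.61 with IL13KO ILC2s. WT coculture 4 lay within the range of the monocultures, and the fall with WT ILC2s (-1.88 ± 0.59) was lost without monoculture 2 (-1.15, edgeR adjusted p = 0.0520) or without WT coculture 1 or 3, and was -2.70 without WT coculture 4. With IL13KO ILC2s the fall was -2.09 ± 0.60, and -1.37 without monoculture 2. Ifit2 stood at 11.8 to 24.9 CPM in monoculture, 7.58 to 10.72 with WT and 8.53 to 10.4 with IL13KO ILC2s, a similar fall in both (-1.01 ± 0.23 and -0.98 ± 0.23). With IL13KO ILC2s Usp18 stood at 5.67, 4.72 and 6.18 CPM, against 10.4, 7.43 and 12.5 with WT ILC2s and 11.6, 26.2, 13.4 and 14.3 in monoculture. Its IL13KO libraries lay below all others, whereas its WT libraries overlapped the monocultures. The fall was 2.97-fold with IL13KO ILC2s (-1.57 ± 0.29, edgeR adjusted p = 5.01e-04) and 1.62-fold with WT ILC2s (-0.70 ± 0.27, edgeR adjusted p = 0.0398). Leaving aside the test against a fold change of 1.5, the latter was lost in 9 of the 20 alternative settings, among them without monoculture 2 (-0.38). The difference between the cocultures, 0.87 ± 0.30, narrowly missed the threshold (edgeR adjusted p = 0.0517).

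Of the OAS family, which makes or resembles the enzymes that activate RNase L, Oasl2 fell with WT ILC2s (9.12, 17.6, 6.73 and 7.59 CPM in monoculture against 4.58, 3.23 and 6.41, -1.12 ± 0.33, edgeR adjusted p = 0.0107). With IL13KO ILC2s it was at 8.11, 6.71 and 5.61 CPM, overlapping the lower monocultures (-0.59 ± 0.33, edgeR adjusted p = 0.137). Oas1a was at 5.997, 25.4, 9.22 and 9.42 CPM in the monocultures, 11.8, 11.5 and 13.0 with WT and 9.19, 7.05 and 8.16 with IL13KO ILC2s. Monoculture 2 stood above all libraries, and the WT cocultures lay above the other 3 monocultures. The Oas1a difference with WT ILC2s was -0.05 ± 0.37 and turned to 0.55 without monoculture 2, where it was called (edgeR adjusted p = 0.0293). Oasl1, at 0.00 to 1.29 CPM in monoculture, 0.916 to 1.89 with WT and 0.510 to 1.30 with IL13KO ILC2s, was not called.

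The RNA sensors were Ifih1 (MDA5), Ddx58 (RIG-I) and Dhx58 (LGP2), of which 2 were lower in each coculture. Among all genes tested 29.7% were lower with WT and 27.3% with IL13KO ILC2s. Ifih1 was at 26.0, 23.3, 9.96 and 16.1 CPM in the monocultures, 9.47, 8.15 and 10.2 with WT and 14.5, 10.5 and 8.05 with IL13KO ILC2s. Both cocultures overlapped monoculture 3, and the falls were -1.02 ± 0.29 and -0.78 ± 0.29, the second lost in 6 of the 20 alternative settings, leaving aside the test against a fold change of 1.5. Dhx58 fell from 7.10 to 9.998 CPM to 4.94 to 6.35 with WT (-0.72 ± 0.20) and to 4.83 to 6.86 with IL13KO ILC2s (-0.68 ± 0.20). Ddx58 was at 5.72 to 11.1, 5.23 to 10.3 and 8.56 to 10.4 CPM and was not called (-0.13 ± 0.25 and 0.07 ± 0.25).

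Of the other type I effectors, Rtp4, a chaperone-like protein of the receptor transporter family, and Xaf1, a proapoptotic protein, fell most. Rtp4 stood at 10.9, 47.3, 9.96 and 14.5 CPM in the monocultures, 3.10, 2.77 and 3.503 with WT and 4.88, 3.87 and 3.91 with IL13KO ILC2s. All cocultures lay below all monocultures, and monoculture 2 was far above every other library. The fall was -2.73 ± 0.50 with WT and -2.30 ± 0.49 with IL13KO ILC2s, and without monoculture 2 -1.92 and -1.49, called in each case. Other genes on the same strand cover 13.9% of the exon bases of Rtp4 and 13.7% of those of Herc6, so their counts are uncertain to that extent. Xaf1 (15.0, 25.3, 14.2 and 13.4 CPM in monoculture) fell to 3.90, 3.38 and 3.02 with WT and to 6.12, 5.74 and 5.78 with IL13KO ILC2s. The 3 groups did not overlap, and the difference between the cocultures was called (-0.77 ± 0.25, edgeR adjusted p = 0.0407). Herc6, a ubiquitin ligase of the HERC family, had the same order, at 6.33 to 9.70 CPM in monoculture, 4.95 to 5.95 with IL13KO and 2.82 to 4.10 with WT ILC2s. Its fall with IL13KO ILC2s (-0.52 ± 0.21, edgeR adjusted p = 0.0478) was lost in 9 alternative settings, leaving aside the test against a fold change of 1.5. Bst2, which encodes tetherin, was at 27.8, 59.5, 32.7 and 32.8 CPM in the monocultures, 22.8, 26.6 and 28.4 with WT and 17.1, 15.9 and 16.6 with IL13KO ILC2s. The IL13KO cocultures were the lowest for Bst2, as for Usp18, with a fall of -1.21 ± 0.23 (edgeR adjusted p = 5.81e-04). The smaller fall of Bst2 with WT ILC2s (-0.56 ± 0.22, edgeR adjusted p = 0.0400) was lost in 11 of those settings, and the cocultures did not differ by the threshold (0.65 ± 0.24, edgeR adjusted p = 0.0640). Ifi35, at 65.5 to 99.8 CPM in monoculture, fell by -0.82 ± 0.13 with WT and -0.65 ± 0.13 with IL13KO ILC2s, and a gene on the other strand covers 16.8% of its exon bases. Trim25, the ubiquitin ligase that activates RIG-I, was the other member that rose, from 13.1, 7.998, 10.5 and 13.1 CPM in the monocultures to 24.1, 22.3 and 19.0 with WT (0.97 ± 0.18) and 27.7, 20.7 and 22.11 with IL13KO ILC2s (1.07 ± 0.19). Neither Trim25 difference was called under the GC and length correction (0.29 and 0.30). Parp9, at 10.2 to 19.0 CPM over all libraries, and Parp14, at 0.914 to 3.99, were not called in any comparison.

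**Figure D3:**
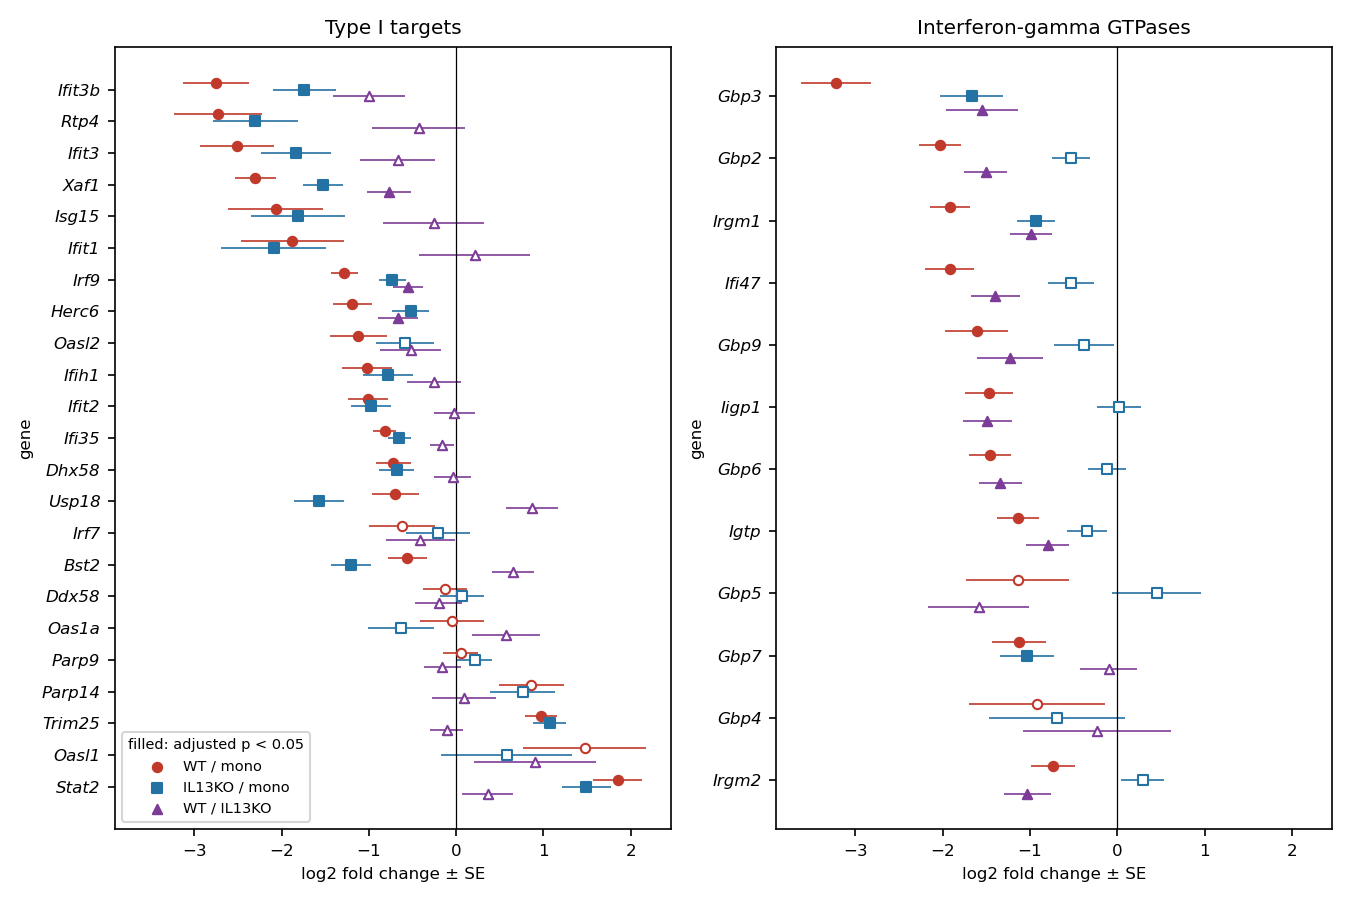
Log2 fold change ± SE (horizontal axis) of each tested type I target (left) and GTPase (right) in WT coculture against monoculture (red circles), IL13KO coculture against monoculture (blue squares) and WT against IL13KO coculture (purple triangles), filled where the adjusted p is below 0.05. Among the GTPases the red and purple symbols lie left of 0 for all 12 genes and the blue ones lie nearer 0 than the red ones, while among the type I targets red and blue lie on the same side of 0 for most genes.

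The guanylate-binding proteins are large GTPases that assemble on the vacuoles of bacteria and parasites. Of the 7 tested GBP genes 5 were lower with WT ILC2s, 2 were lower with IL13KO ILC2s and 4 were lower with WT than with IL13KO ILC2s. Of all genes tested 29.7%, 27.3% and 11.7% were lower in these comparisons, so the count with IL13KO ILC2s is near the background. Gbp2 (chromosome 3, 142620602 to 142638008, GRCm38) had the highest level per length of the GBPs, 24.7 CPM per kb in monoculture, 6.03 with WT and 17.2 with IL13KO ILC2s. Its libraries stood at 81.1, 74.7, 36.5 and 56.3 CPM in monoculture, at 15.7, 14.2 and 15.6 with WT and at 52.8, 40.8 and 35.95 with IL13KO ILC2s. The WT cocultures lay below all others, and the IL13KO cocultures overlapped the lower monocultures (-0.53 ± 0.22, edgeR adjusted p = 0.0604). The direct difference between the cocultures was 2.84-fold (-1.51 ± 0.25, edgeR adjusted p = 8.27e-04). Gbp3 stood at 20.7, 34.8, 9.04 and 18.4 CPM in the monocultures, 2.56, 1.69 and 2.43 with WT and 7.71, 6.99 and 4.93 with IL13KO ILC2s. It fell in a graded order without overlap, by 9.30-fold with WT (-3.22 ± 0.40) and 3.18-fold with IL13KO ILC2s (-1.67 ± 0.36), and the difference between the cocultures was called (-1.55 ± 0.41, edgeR adjusted p = 0.0149).

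Gbp6 was at 17.2, 15.9, 8.39 and 12.5 CPM in the monocultures, 4.49, 5.02 and 5.23 with WT and 11.9, 14.7 and 10.66 with IL13KO ILC2s. The IL13KO libraries lay inside the monoculture range (-0.12 ± 0.22) and the WT libraries below it (-1.46 ± 0.24), 2.53-fold below the IL13KO cocultures (edgeR adjusted p = 0.00176). Gbp9 followed the same pattern at 3.32 to 12.9, 2.86 to 3.02 and 5.84 to 7.77 CPM (-1.61 ± 0.36 with WT, -0.38 ± 0.34 with IL13KO ILC2s, and -1.23 ± 0.38 between them, edgeR adjusted p = 0.0326). Another gene on the same strand covers 29.0% of the exon bases of Gbp6, and Gbp4, Gbp6 and Gbp9 are related genes of a cluster on chromosome 5, so the split of reads among them is uncertain. Gbp7 differed from its relatives: it stood at 8.95, 8.74, 9.59 and 7.17 CPM in the monocultures, 2.51, 3.89 and 5.44 with WT and 5.56, 4.83 and 2.21 with IL13KO ILC2s. It fell about equally in both cocultures (-1.13 ± 0.31 and -1.03 ± 0.31), which overlapped each other, and a pseudogene on the same strand covers 11.3% of its exon bases. Gbp4 (0.0703 to 1.70 CPM over all libraries) and Gbp5 (0.0512 to 0.680) were low and not called, and Gbp5 was lower in every WT than in every IL13KO coculture (-1.59 ± 0.58, edgeR adjusted p = 0.0627).

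The immunity-related GTPases act on the same vacuoles, and Irgm1 and Irgm2 regulate the others. All 5 were lower with WT ILC2s than in monoculture and lower than with IL13KO ILC2s, whereas 1, Irgm1, was lower with IL13KO ILC2s than in monoculture. Of all genes tested 29.7%, 11.7% and 27.3% were lower in these comparisons, so the last count is near the background. Ifi47 (chromosome 11, 49076587 to 49096974, GRCm38) was at 21.2, 40.0, 21.3 and 20.5 CPM in the monocultures, 7.90, 4.56 and 7.92 with WT and 18.9, 19.7 and 15.1 with IL13KO ILC2s. The WT cocultures were the lowest, and the IL13KO cocultures lay under the lowest monoculture (-0.53 ± 0.26, edgeR adjusted p = 0.0975). Ifi47 was 3.79-fold lower with WT than without ILC2s (-1.92 ± 0.28) and 2.63-fold lower than with IL13KO ILC2s (-1.40 ± 0.28, edgeR adjusted p = 0.00350). Iigp1 was at 24.1, 38.7, 16.1 and 20.7 CPM in the monocultures, 7.90, 9.43 and 9.75 with WT and 30.5, 25.8 and 19.5 with IL13KO ILC2s. Here the IL13KO cocultures overlapped the monocultures fully (0.02 ± 0.25), and the WT cocultures were 2.80-fold lower than them (-1.49 ± 0.28, edgeR adjusted p = 0.00203).

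Irgm1 was at 35.7, 54.8, 28.0 and 30.5 CPM in the monocultures, 10.9, 7.58 and 11.1 with WT and 19.3, 18.9 and 20.7 with IL13KO ILC2s. Its 3 groups did not overlap, and it fell by 3.79-fold with WT (-1.92 ± 0.23) and 1.90-fold with IL13KO ILC2s (-0.93 ± 0.22), the cocultures differing by -0.99 ± 0.24 (edgeR adjusted p = 0.00894). Irgm2 was at 22.3, 45.0, 23.1 and 34.2 CPM in the monocultures, 23.2, 14.9 and 17.8 with WT and 42.1, 43.8 and 28.5 with IL13KO ILC2s. It lay within the monoculture range with IL13KO ILC2s (0.29 ± 0.25), and the fall with WT ILC2s (-0.74 ± 0.25, edgeR adjusted p = 0.0209) was lost without monoculture 2 (-0.52, edgeR adjusted p = 0.0661) or without WT coculture 3 or 4. Igtp, which overlaps Irgm2 in 8% of its exon bases, fell from 8.67 to 17.6 CPM to 4.92 to 6.36 with WT ILC2s (-1.14 ± 0.24) and was at 8.30 to 11.1 with IL13KO ILC2s (-0.35 ± 0.23). The difference between the cocultures was 1.74-fold for Igtp (-0.80 ± 0.25, edgeR adjusted p = 0.0336).

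**Figure D4:**
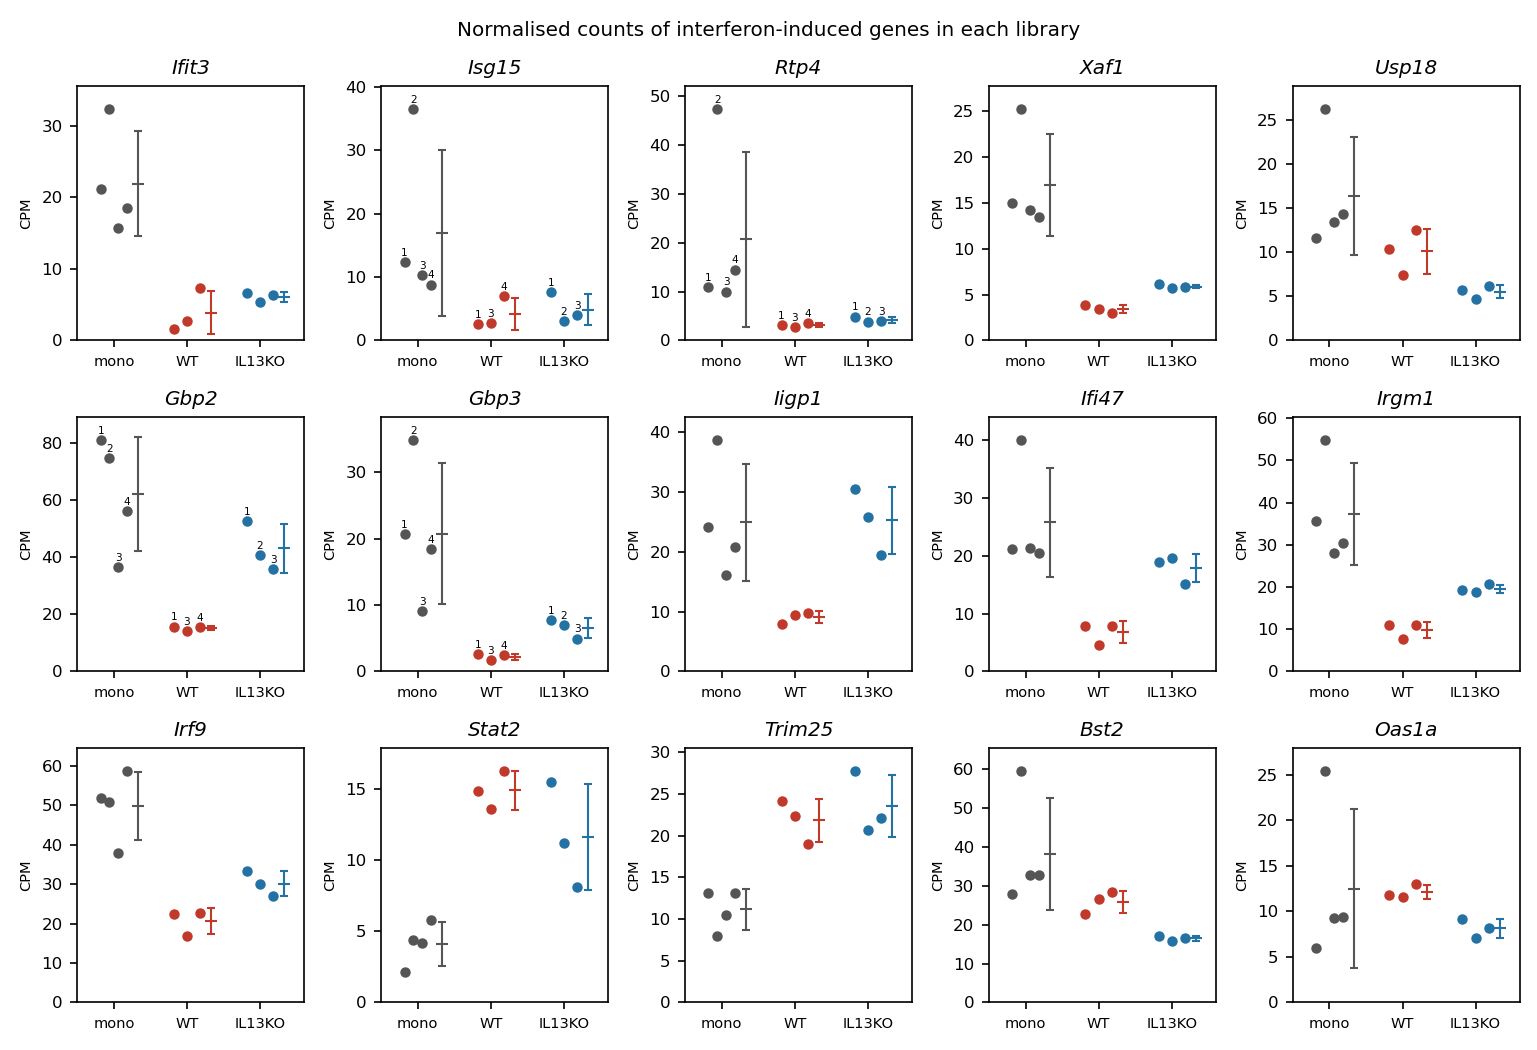
Normalised counts (CPM, vertical axis, starting at 0) of 15 members in each library, with the mean and SD of each group beside the points, for monoculture (grey, 4 libraries), WT coculture (red, 3) and IL13KO coculture (blue, 3). Gbp2, Iigp1 and Ifi47 are lowest in the WT cocultures, Usp18 and Bst2 in the IL13KO cocultures, and Stat2 and Trim25 lie above the monocultures in both.

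The calls between the cocultures depended on single libraries. A smaller group lowers the power for every gene, and the calls over all genes in these fits were not compared. Without WT coculture 3, IL13KO coculture 1 or IL13KO coculture 2 5 members each were called. Of these, 4, 5 and 5 were GTPases, all lower with WT ILC2s, and no type I target was lower. The other member, called without WT coculture 3, was Usp18, which was higher with WT than with IL13KO ILC2s (1.07, edgeR adjusted p = 0.0404). Gbp2, Gbp6, Ifi47 and Iigp1 were called as lower with WT than with IL13KO ILC2s in all 20 alternative settings, the test against a fold change of 1.5 included. Leaving that test aside, the other GTPases lost the call in 1 (Irgm1), 3 (Gbp3), 4 (Irgm2), 7 (Gbp9) and 7 (Igtp) settings, and the type I targets Irf9, Xaf1 and Herc6 in 5, 9 and 8. Against the monocultures, 12 of the 17 called type I targets and 9 of the 10 called GTPases kept their call with WT ILC2s in every setting other than that test, and 10 of 16 and 2 of 3 with IL13KO ILC2s.

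The spread among the monocultures was larger for the members than for most genes. The median SD of log2 CPM over the 4 monocultures was 0.473 for the 36 tested members and 0.293 for all genes tested (0.237 for the 8399 genes at 5 to 100 CPM, a range chosen after the values were seen). The type I targets and the GTPases had like values (0.482 and 0.473). In the WT cocultures the medians were 0.257 for the members and 0.183 for all genes, and in the IL13KO cocultures 0.192 and 0.141. Monoculture 2 was the highest of the 4 for 24 of the 36 members (66.7%), against 21% of all genes tested, with a median of 0.80 log2 units above the other 3. Monoculture 3 was the lowest for 17 members (47.2%, against 27.1% of all genes) and for 7 of the 12 GTPases. Single libraries stood out in the cocultures too, by smaller distances. WT coculture 4 was the highest of its group for 24 members (66.7%, against 34.8% of all genes), with a median of 0.22 log2 units above the rest. WT coculture 3 was the lowest for 21 (58.3%, against 30.6%). IL13KO coculture 1 was the highest for 21 (58.3%, against 34.3%), with a median of 0.21. IL13KO coculture 3 was the lowest for 19 (52.8%, against 34.6%) and for 9 of the 12 GTPases, with a GTPase median of -0.36. The largest spreads among the monocultures were those of Oasl1 (SD 1.61), Gbp4 (1.55), Ifit1 (1.06) and Rtp4 (1.03). Without monoculture 2, the library that was highest for most members, the median SD of the members was 0.307. The value of 0.293 for all genes covers all 4 monocultures and is not its like, and the excess spread without monoculture 2 was not tested. In the fit without monoculture 2, 12 type I targets and 9 GTPases were lower with WT ILC2s, 12 and 3 with IL13KO ILC2s, and 3 and 9 between the cocultures. The calls over all genes in that fit were not compared. In the fit of all libraries 29.7%, 27.3% and 11.7% of all genes tested were lower. The 3 GTPases (of 12) with IL13KO ILC2s and the 3 type I targets (of 23) between the cocultures are near those shares.

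The members too low to test had few reads. Cxcl10, which encodes a chemokine for T cells, had 0 reads in the 4 monocultures, while the WT cocultures held 7, 7 and 13 and the IL13KO cocultures 4, 4 and 4. Against a floor of 3 counts over the monocultures the observed level was 7.52-fold higher with WT and 3.81-fold higher with IL13KO ILC2s. These ratios leave out the counting error of the coculture reads and the spread between libraries, and the difference was not tested. Cxcl9, a chemokine with the same receptor, went the other way in read numbers, with 5, 21, 6 and 7 reads in the monocultures, 3, 2 and 0 with WT and 3, 1 and 4 with IL13KO ILC2s. In the monocultures Oas2 had 0 reads, against 9, 0 and 5 with WT and 1, 2 and 3 with IL13KO ILC2s. Ifi44 had 11, 28, 4 and 7 reads in the monocultures and 4 to 8 in the cocultures, and Rsad2, or viperin, had 0, 20, 3 and 6 reads in the monocultures and 0 to 4 in the cocultures. Monoculture 2 had the most reads of all libraries for Cxcl9, Ifi44 and Rsad2. Mx1 and Oas3 had 3 and 4 reads, all in WT coculture 4. C57B6 mice are known to carry a defective Mx1.

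The genes upstream of the members were given by lists of ligands, receptors and kinases, inducers of interferon, negative regulators and further effectors. Of 69 names in these lists 61 matched a gene in the table and 56 were tested, of which 24 were higher and 11 lower in WT coculture, against 23 and 11 in IL13KO coculture. Of all genes tested, 32.8% were higher and 29.7% lower in WT coculture, against 30.1% and 27.3% in IL13KO coculture. In these lists 2 genes stand under both their names. The listed ligand genes, which leave out interferon alpha, could not be tested. Ifnk, the only listed ligand in the table, had 6 reads in all. Under the GC and length correction, 18 were higher and 20 lower in WT coculture, and 16 and 18 in IL13KO coculture, so the balance of higher and lower calls depends on that correction. Of 8 receptor and kinase genes 4 were higher with WT and 6 with IL13KO ILC2s, and 0 were lower.

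Ifnar1, the first chain of the type I receptor, stood at 33.4, 51.3, 59.7 and 52.0 CPM in the monocultures, 114, 110 and 92.7 with WT and 122, 120 and 116 with IL13KO ILC2s, a rise of 2.15-fold and 2.43-fold (1.11 ± 0.16 and 1.28 ± 0.16). Ifngr2, the signalling chain of the interferon gamma receptor, rose from 79.7, 130, 141 and 124 CPM to 404, 397 and 351 with WT (1.69 ± 0.15) and 210, 204 and 204 with IL13KO ILC2s (0.80 ± 0.15). The cocultures differed for Ifngr2 (0.90 ± 0.16, edgeR adjusted p = 0.00158), in the direction opposite to the GTPases. Tyk2, a kinase of the type I receptor, rose from 0.518 to 2.12 CPM to 5.87 to 9.69 with WT (2.63 ± 0.32) and 8.47 to 11.1 with IL13KO ILC2s (2.95 ± 0.32), and by 1.16 and 1.26 under that correction for GC content and length.

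Of 7 negative regulators 5 were higher and 1 was lower in WT coculture, against 4 and 1 in IL13KO coculture. Among all genes tested 32.8% were higher and 29.7% lower in WT coculture, against 30.1% and 27.3% in IL13KO coculture. Socs1, which blocks Janus kinases, rose from 6.25, 17.0, 20.4 and 16.8 CPM in the monocultures to 168, 169 and 148 with WT (3.42 ± 0.26) and 90.2, 92.4 and 107 with IL13KO ILC2s (2.68 ± 0.26), and by 2.12 and 1.17 with the trend removed. Socs3, a relative, rose from 15.5 to 29.7 CPM to 225 to 347 with WT (3.87 ± 0.22) and 332 to 369 with IL13KO ILC2s (4.08 ± 0.22), and by 2.72 and 2.75 with the trend removed. Ptpn2, a phosphatase of Janus kinases and STAT proteins, was at 40.0, 42.6, 33.1 and 38.1 CPM in the monocultures, 96.4, 102 and 108 with WT and 45.1, 50.0 and 44.6 with IL13KO ILC2s. It rose with WT ILC2s (1.41 ± 0.10) and differed between the cocultures (1.13 ± 0.11, edgeR adjusted p = 1.70e-05), and its rise with IL13KO ILC2s (0.27 ± 0.11, edgeR adjusted p = 0.0393) was lost in 10 settings.

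Of 11 inducers of interferon 5 were higher with WT ILC2s, and 4 were higher and 1 lower with IL13KO ILC2s, where 32.8% and 30.1% of all genes tested were higher. Tmem173, which encodes the adaptor STING, rose from 60.6 to 68.7 CPM to 131 to 140 with WT (1.12 ± 0.09) and 101 to 116 with IL13KO ILC2s (0.78 ± 0.09). Ticam1, the adaptor TRIF, rose by 2.21 ± 0.23 and 1.35 ± 0.23, and by 1.11 and 0.10 with the trend removed, the last not called. Ikbke, a kinase of interferon regulatory factors, rose by 1.82 ± 0.28 and 2.36 ± 0.28 (1.11 and 1.54 with the trend removed). Of 30 further effectors 10 rose and 10 fell in WT coculture, against 9 and 9 in IL13KO coculture, shares near those of all genes tested. Ifi27 fell from 333 to 409 CPM to 161 to 167 with WT (-1.14 ± 0.09) and 173.5 to 197 with IL13KO ILC2s (-0.99 ± 0.09). Slfn5 fell with WT ILC2s (16.7 to 21.7 CPM against 3.38 to 4.80, -2.18 ± 0.19) and was at 13.0 to 17.96 CPM with IL13KO ILC2s (-0.27 ± 0.17). Its paralogue Slfn9 rose by 2.81 ± 0.29 with WT and 0.94 ± 0.31 with IL13KO ILC2s, so 2 genes of this family went in opposite directions.

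**Figure D5:**
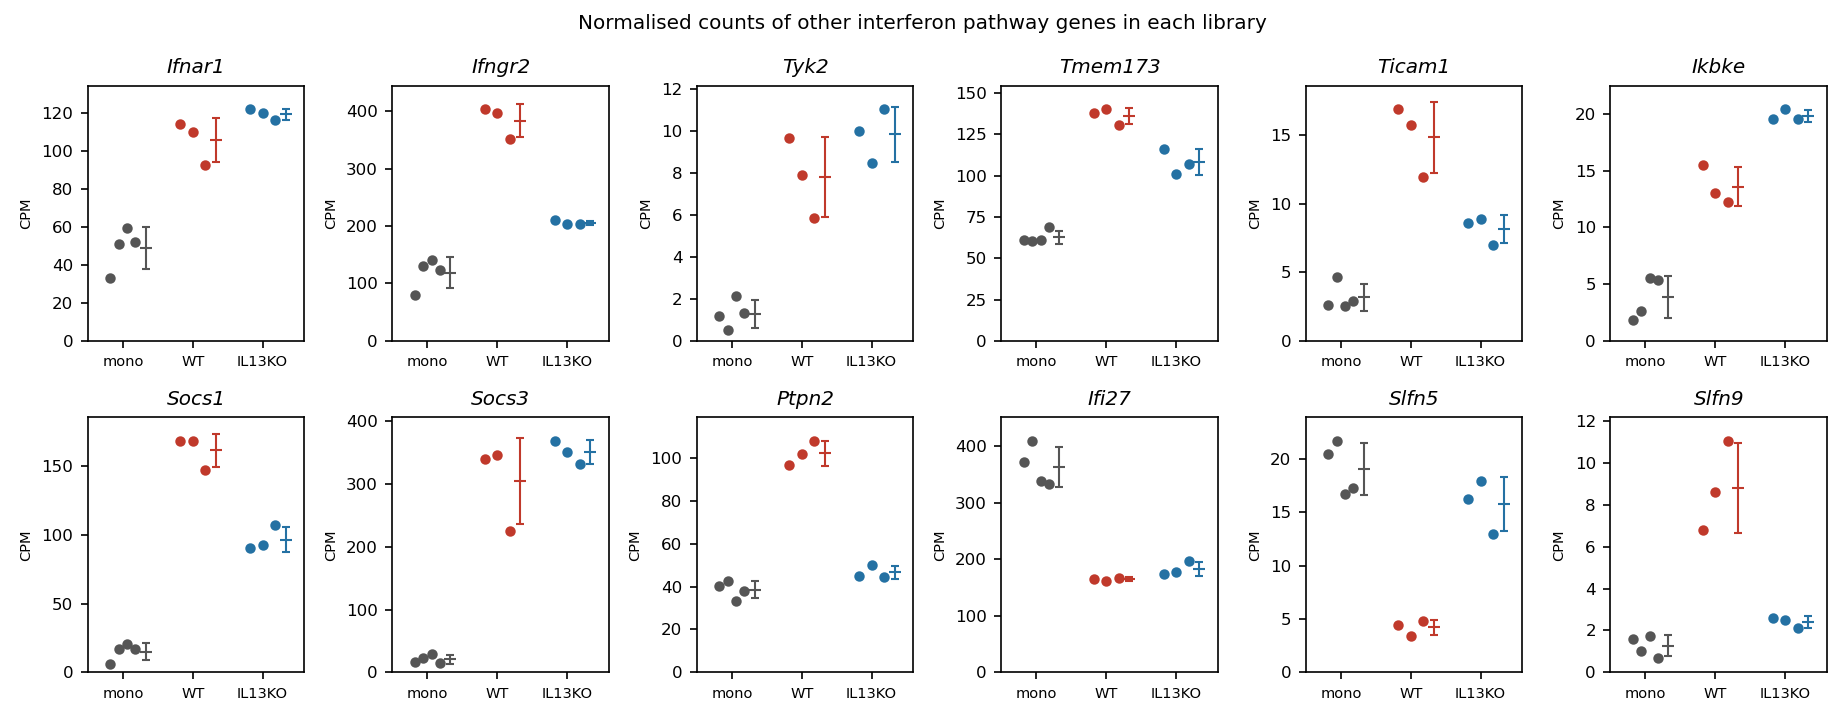
Normalised counts (CPM, vertical axis, starting at 0) of 12 other genes of the interferon pathway in each library, with the mean and SD of each group, for monoculture (grey, 4 libraries), WT coculture (red, 3) and IL13KO coculture (blue, 3). Socs1, Socs3, Ifnar1 and Tyk2 lie above the monocultures in all cocultures, and Ifngr2, Ptpn2 and Slfn9 are highest in the WT cocultures.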

How the data were processed

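Bulk RNA sequencing of 10 libraries of mouse fibroblasts was analysed. The deposited table gives counts, as whole numbers. The submitters' processing notes name STAR 2.7.7a and Salmon 1.6.0 among their tools, besides Trimmomatic 0.39, FastQC 0.11.9, DESeq2 and Picard, and the build GRCm38.p6, and the counting tool and strand setting are not given in the sources used here. A second deposited table holds the same counts as a normalized signal (counts divided by size factors, within 0.001 counts) and was not used. Genes were named by GENCODE vM21, which matched 22639 of 22731 identifiers. filterByExpr left 16344 genes. All 10 libraries entered a single quasi-likelihood fit in edgeR 4.0.16 (R 4.3.3) after TMM scaling, with a term for each group. Benjamini-Hochberg adjustment covered all genes tested, within each comparison. TMM factors scale the CPM, with a prior count of 2 on the log2 scale. Each ± SE comes from the quasi-likelihood fit and includes the spread between libraries, whereas the floors cover counting error only.

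The 44 members and all lists were chosen with earlier results of these data known. Values, by library or as a range or fold change, are given for up to 3 tested members per role with the smallest adjusted p with WT ILC2s. They are also given for the 2 with the smallest adjusted p per direction in the other comparisons, and the 4 with the largest spread among monocultures. Of each pathway list up to 3 genes are named. Isg15, Gbp5, Gbp7, Gbp9, Igtp, Irf1, Irgm2, Parp9 and Parp14 were added after their values were seen, as were the genes plotted. Alternatives were RLE and upper-quartile scaling, the GC and length trend removed (loess, span 0.4), DESeq2 1.42.0, limma-voom (limma 3.58.1), a test against a fold change of 1.5, no filter, a filter of 1 CPM in 3 libraries, only the groups compared, a replicate block and leaving out each library. Columns of the WT cocultures are numbered 1, 3 and 4 in the table and 1 to 3 in the titles, so they were mapped to the group.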

Additional observations from a re-analysis of the deposited data

Results flagged for a closer look

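Monoculture 2 stood apart from the other 3 monocultures in normalised counts for 6 members, by a gap to the next value larger than Dixon's critical share of the range. They were Isg15 (36.5 CPM), Bst2 (59.5), Rtp4 (47.3), Xaf1 (25.3), Ifi47 (40.0) and Cxcl9 (1.56). The rule was run on 39 genes, and chance sets apart about 1 in 20 groups. On the log2 scale, tried after both scales had been seen, 1 gene was set apart. What distinguishes monoculture 2 was not tested.

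The effect of WT ILC2s differed from that of IL13KO ILC2s by edgeR's test of the difference itself for 12 members, as log2 fold changes of WT against IL13KO coculture. They were -0.55 for Irf9, -0.77 for Xaf1 and -0.67 for Herc6 among the type I targets. Among the GTPases they were -1.51 for Gbp2, -1.55 for Gbp3, -1.34 for Gbp6, -1.23 for Gbp9, -1.40 for Ifi47, -0.80 for Igtp, -0.99 for Irgm1, -1.03 for Irgm2 and -1.49 for Iigp1. Of all genes tested 23.3% were called between the cocultures, 11.7% as lower. The count of 3 of 23 tested type I targets is near that background. Irf9, Xaf1 and Herc6 lost the call in 5, 9 and 8 alternative settings, leaving aside the test against a fold change of 1.5.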

How the results depend on the processing

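Over 20 alternative settings the 36 tested members gave 2146 fitted changes, of which 1939 kept direction and side of the threshold, 116 lost a call, 38 gained one and 53 changed sign. None of the 53 was called before, and 1 (Oas1a without monoculture 2) was called after. The cause of these changes was not tested.

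Counts that moved by more than 1.5 times were these. With a test against a fold change of 1.5, members called in IL13KO coculture against monoculture numbered 11 (8 type I targets and 1 GTPase lower), and between the cocultures 4 (0 type I targets, 4 GTPases). Upper-quartile scaling gave 5 GTPases lower in IL13KO coculture against monoculture. Between the cocultures, type I targets numbered 1 under GC and length correction and 1 with no filter. Leaving out 1 library gave, between the cocultures, 5 to 14 members called, 0 to 3 type I targets lower and 4 to 9 GTPases lower, and 2 to 5 GTPases lower in IL13KO coculture against monoculture (5 without monoculture 3). How the calls over all genes moved in these settings was not compared.

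The replicate block by column number gave 1 type I target lower between the cocultures (3 without the block) and 25, 19 and 8 members called in the 3 comparisons. Same-numbered libraries did not deviate together over all genes (correlations from -0.126 to 0.028, against -0.153 to 0.14 for other pairs). Whether they share an animal or a batch cannot be told from these values. With the block, Oas1a was 0.31 with WT ILC2s and Gbp4 0.39 between the cocultures.

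Signs changed as follows. Against monoculture with WT ILC2s, they did so for Oas1a by limma-voom (0.14), Parp9 (-0.07) and Irf1 (-0.10) with upper-quartile scaling, and Parp9 (-0.13) and Irf1 (-0.27) under GC and length correction. With IL13KO ILC2s, they did so for Ddx58 (-0.04), Iigp1 (-0.09) and Irf1 (-0.04) with upper-quartile scaling, for Oasl1 (-0.15), Ddx58 (-0.08), Gbp6 (0.12) and Irf1 (-0.27) with the trend removed, and for Gbp4 (0.05) by limma-voom. Between the cocultures, they did so for Ifit1 by limma-voom (-0.14) and for Ifit2 (0.01) and Dhx58 (0.03) with the trend removed.

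Leaving out 1 library turned the sign of further differences, given as lowest to highest. With WT ILC2s against monoculture they ran from -0.29 to 0.55 for Oas1a, -0.32 to 0.11 for Ddx58, -0.10 to 0.14 for Parp9 and -0.06 to 0.09 for Irf1. With IL13KO ILC2s they ran from -0.42 to 0.14 for Irf7, -0.09 to 0.18 for Ddx58, -1.10 to 0.10 for Gbp4, -0.29 to 0.01 for Gbp6, -0.14 to 0.31 for Iigp1 and -0.03 to 0.13 for Irf1. Between the cocultures they ran from -0.88 to 0.22 for Isg15, -0.61 to 0.63 for Ifit1, -0.13 to 0.12 for Ifit2, -0.42 to 0.0042 for Ifih1, -0.40 to 0.06 for Ddx58 and -0.14 to 0.14 for Dhx58. They ran from -0.21 to 0.34 for Parp14, -0.19 to 0.03 for Trim25, -0.82 to 0.03 for Gbp4, -0.40 to 0.16 for Gbp7 and -0.09 to 0.04 for Irf1.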
